A study of Rattus norvegicus with 6 samples.

Results

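miR-132 and miR-212 are a pair of related microRNAs (miRNAs) made from 1 stretch of the genome, and both arms of each hairpin were counted in rat lung after ischemia reperfusion (IR) and after sham operation. The 4 mature miRNAs, rno-miR-132-3p, rno-miR-132-5p, rno-miR-212-3p and rno-miR-212-5p, were chosen by name from the 693 miRNAs listed, with the levels in IR and sham lungs already known. Their levels and arm ratios in IR against sham are therefore given as a description, with no p-value, and nothing is supported with them. The IR group was 3 Sprague-Dawley rats whose left hilum was clamped for 45 min and then reperfused, for a time that was not given in the sources used here. Sham lungs came from 3 Sprague-Dawley rats opened in the same way without clamping, which the sample labels call control. All were male and 7 to 8 weeks old, and each gave 1 small RNA library from lung tissue.

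A miRNA hairpin is cut by Drosha and Dicer into a short duplex, whose strands are named 5p and 3p after the side of the hairpin they come from. Usually 1 strand is loaded into an Argonaute protein and pairs with target mRNAs through its seed, bases 2 to 8, and the other is largely discarded. The transcript of miR-212 and miR-132 is a known target of the cAMP-responsive transcription factor CREB and was first studied in neurons, where miR-132 promotes dendrite growth in response to activity. In endothelial cells miR-132 is known to target the Ras inhibitor p120RasGAP, in immune cells acetylcholinesterase, and in heart muscle of mice miR-212 and miR-132 target Foxo3. The coactivator p300 is another known target of miR-132. These data hold no measure of CREB, so that whether it drives the pair in this lung was not tested.

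The sequences show which arms share a seed. All 4 members matched the 724 mature miRNAs of the RefSeq table for GRCr8, on the plus strand of chromosome 10, and the seed is in capitals, each written 5′ to 3′.
rno-miR-132-3p: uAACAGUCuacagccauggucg
rno-miR-212-3p: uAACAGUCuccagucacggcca
rno-miR-132-5p: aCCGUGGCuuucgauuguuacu
rno-miR-212-5p: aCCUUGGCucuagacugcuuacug
The 3p arms share the seed AACAGUC, which no other mature rat miRNA in that table carries, and differ at 5 of 22 positions, all after the seed (A10C, C14U, U17C, U20C and G22A, with the base of miR-132-3p first and positions counted from its 5′ end). Each 5p arm has a seed that no other entry shares. The mature sequences lie at chr10:60522091-60522112 (miR-132-3p), chr10:60522055-60522076 (miR-132-5p), chr10:60521811-60521832 (miR-212-3p) and chr10:60521771-60521794 (miR-212-5p) of GRCr8, a build that the counts may not have used. miR-212 comes first on the transcript, with 222 bases between miR-212-3p and miR-132-5p. In the RefSeq annotation of GRCr8 the pair stands between the protein-coding gene Hic1 and a lncRNA gene, LOC120095261.

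The hairpin of miR-132 shows how the arms lie to each other, with the mature arms in capitals, 5p first.
Mir132 hairpin: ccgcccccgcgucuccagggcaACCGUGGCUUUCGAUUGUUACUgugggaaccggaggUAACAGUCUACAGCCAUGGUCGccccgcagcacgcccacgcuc
It spans chr10:60522033-60522133 of GRCr8 on the plus strand. The 5p arm takes positions 23 to 44 and the 3p arm positions 59 to 80, with a loop of 14 bases between them. Both arms are thus cut from the same molecule.

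The libraries held 3775663 to 11248166 miRNA reads after IR and 7459979 to 10718899 in sham lungs. Levels are read counts divided by the library total after TMM scaling, per 1000000 reads (normalized CPM). A read stands for a whole mature miRNA, so that no length term is needed, although adapters join some small RNA ends more readily than others. Vessel miRNAs of lung tissue were abundant in all libraries: the summed level of the endothelial miR-126a arms was 83153 to 105378 normalized CPM after IR and 88065 to 111213 in sham. Sham replicate 1 stood apart for miR-132-3p, so values are also given without that library.

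miR-132-3p, the arm through which most known targets of miR-132 are bound, was at 10.7, 9.41 and 9.69 normalized CPM in the IR lungs and at 38.2, 15.3 and 12.9 in the sham lungs. The 3 IR lungs lay close together and below every sham lung, and sham replicate 1 was far above the rest. The means were 9.94 ± 0.689 after IR and 22.1 ± 13.9 in sham (SD, n = 3 each). The fitted log2 fold change of IR against sham was -1.15 (standard error 0.42), a 2.21-fold lower level. Without sham replicate 1 it was -0.52 (standard error 0.26), and the sham mean was 14.1 ± 1.74 (SD, n = 2). Of all 418 miRNAs tested, 16.7% had IR libraries all below the sham libraries on this scale. On the deposited TPM, which has no TMM scaling, the groups overlapped: IR replicate 1 was at 11.3 TPM and sham replicate 3 at 11.2 TPM.

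The opposite arm, miR-132-5p, was at 19.2, 6.56 and 13.6 normalized CPM in the IR lungs and at 6.30, 8.25 and 6.50 in the sham lungs. IR replicates 1 and 3 were above all sham lungs, and IR replicate 2, the library with the fewest reads, was among them. The means were 13.1 ± 6.32 after IR and 7.01 ± 1.07 in sham (SD, n = 3 each), and the log2 fold change was 0.92 (standard error 0.37), or 1.89-fold higher. Without IR replicate 1 the log2 fold change was 0.50. The spread thus sat in opposite groups for the arms of this hairpin: the coefficient of variation was 6.93% after IR and 63.0% in sham for miR-132-3p, and 48.2% after IR and 15.3% in sham for miR-132-5p.

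miR-212-5p, the more abundant arm of miR-212 here, was at 1.96, 2.00 and 1.77 normalized CPM in the IR lungs and at 1.13, 1.77 and 1.34 in the sham lungs, from 7 to 21 reads a library after IR and 9 to 20 in sham. The groups met at IR replicate 3 and sham replicate 2. The log2 fold change was 0.40 (standard error 0.35), smaller than 2 standard errors.

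miR-212-3p, which carries the shared seed, had 3, 0 and 5 reads in the IR lungs and 12, 1 and 6 reads in the sham lungs. It was the only member that did not pass the filter on low counts. In IR replicate 2 a count of 0 allows up to 0.795 TPM, the level of 3 reads at that depth. The 8 reads summed over the IR lungs and the 19 over the sham lungs gave a ratio of 0.562 once divided by the totals, with a 95% exact (Clopper-Pearson) interval of 0.213 to 1.35. The interval covers counting error only and leaves out the spread between rats, and even so it includes 1. Without sham replicate 1 the log2 ratio was 0.17, against -0.83 with it.

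**Figure D1:**
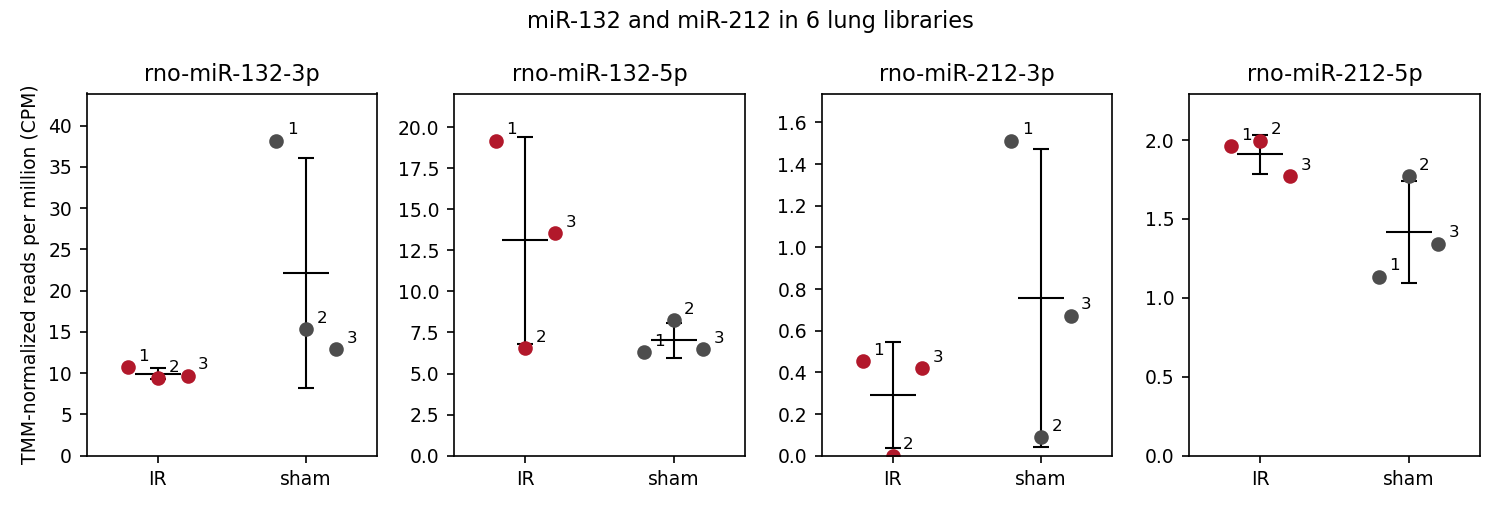
Level of each member in normalized CPM (vertical axes, on separate scales) in the IR lungs (red) and the sham lungs (grey), with replicate numbers beside the points and bars for the mean and SD of 3 libraries. miR-132-3p lies at 9.41 to 10.7 after IR and 12.9 to 38.2 in sham, while miR-132-5p reaches 19.2 after IR and at most 8.25 in sham.

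Of the 3 members tested, 0 passed an adjusted p under 0.05 (Benjamini-Hochberg over all miRNAs) in edgeR's quasi-likelihood test, where 10.5% of the 418 tested miRNAs did (7.89% higher and 2.63% lower after IR). At an unadjusted p under 0.05 the count was 2 of 3 with edgeR, 2 of 4 with DESeq2, 1 of 3 with limma-voom and 0 of 3 with limma-trend, and 0 members passed the adjusted threshold with any of these tools. Over all miRNAs, 110 of 418 had such an unadjusted p with edgeR (59 higher and 51 lower after IR). DESeq2 gave 69 higher and 57 lower of 693, limma-voom 62 higher and 45 lower of 418, and limma-trend 62 higher and 42 lower of 418. Over all tested miRNAs the median log2 fold change was -0.01 and its median size 0.33. Nothing is read from these counts, since the contrast was known when the pair was chosen. Lung tissue mixes many cell types, and fewer cells of a type cannot be told apart from less miRNA in each cell.

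The arms of miR-132 differed in their share of the reads of the hairpin. The 3p arm had 35.9% of 198 reads, 58.9% of 56 reads and 41.7% of 276 reads in the IR lungs. It had 85.8% of 353 reads, 65.0% of 266 reads and 66.5% of 173 reads in the sham lungs. The 3p arm was thus the major arm in all 3 sham lungs and in IR replicate 2, and the 5p arm in IR replicates 1 and 3. The 95% exact (Clopper-Pearson) intervals were 29.2% to 43.0%, 44.98% to 71.9% and 35.8% to 47.7% in the IR lungs and 81.8% to 89.3%, 59.0% to 70.8% and 58.9% to 73.5% in the sham lungs. The shares did not overlap between groups, although the interval of IR replicate 2 reached over those of sham replicates 2 and 3. Of all 146 hairpins compared below, 6.85% had a log2 ratio of 3p to 5p that was lower in every IR library than in every sham library. These intervals cover counting error within a library only and leave out the spread between rats. The counts are of reads without molecular identifiers, so the intervals may be too narrow even for counting error.

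On the log2 scale the ratio of 3p to 5p reads of miR-132 was -0.27 ± 0.70 after IR and 1.49 ± 0.95 in sham (SD, n = 3 each), a difference of -1.76 (standard error 0.68), or a 3.38-fold lower ratio. A ratio within a library does not depend on how libraries are scaled. Without sham replicate 1 the difference was -1.21 (standard error 0.41), and the other libraries left out in turn gave -1.47 to -2.15. The reads of both arms together were at 29.9, 16.0 and 23.3 normalized CPM in the IR lungs and at 44.5, 23.6 and 19.4 in the sham lungs. These sums overlapped between the groups, with means of 23.0 ± 6.96 after IR and 29.1 ± 13.4 in sham (SD, n = 3 each). Without sham replicate 1 the sham mean was 21.5 ± 2.97 (SD, n = 2), below the IR mean, so that the direction rested on that library.

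**Figure D2:**
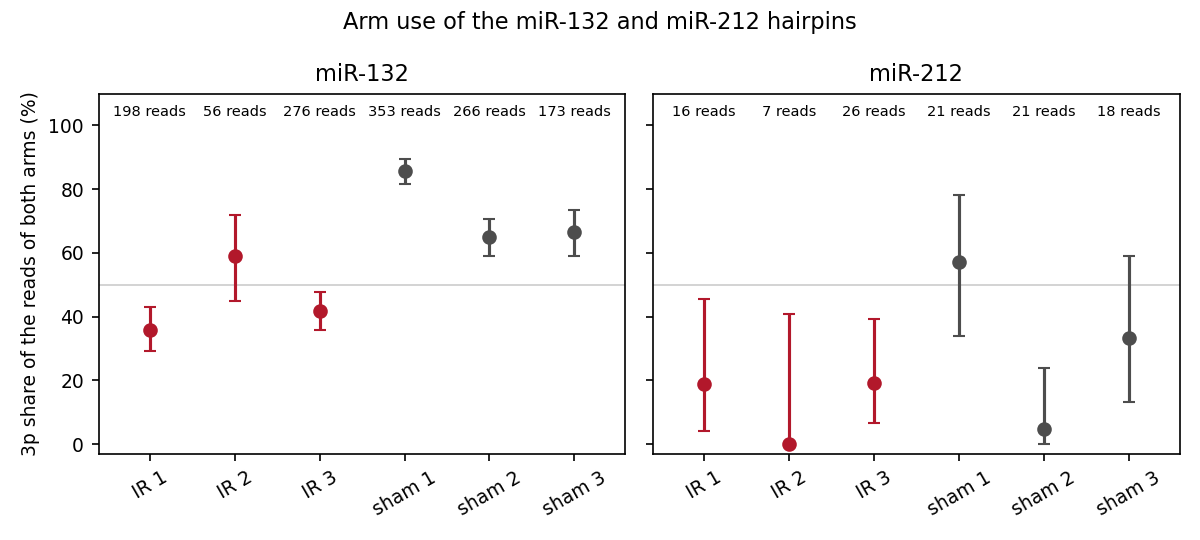
Share of the 3p arm among the reads of both arms (vertical axis, percent) in each IR library (red) and sham library (grey) for miR-132 and miR-212, with 95% exact binomial intervals and the reads behind each share. For miR-132 the share is 35.9% to 58.9% after IR and 65.0% to 85.8% in sham, while the shares of miR-212 overlap.

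For miR-212 the 5p arm was the major arm in all libraries except sham replicate 1. The 3p arm had 3 of 16, 0 of 7 and 5 of 26 reads in the IR lungs and 12 of 21, 1 of 21 and 6 of 18 reads in the sham lungs. The 0 of 7 reads have an upper exact limit of 41.0%. The difference in log2 ratio was -1.17 (standard error 1.39) and smaller than its error, and it was -0.25 without sham replicate 1 and -2.33 without sham replicate 2. Sham replicate 1 had the highest 3p share of all 6 libraries in both hairpins.

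Arm ratios of all hairpins were computed in the same way, to place miR-132 and miR-212 among them. Of the listed hairpins, 146 had both arms named and at least 20 reads of the less frequent arm over the 6 libraries. Their difference in log2 ratio of 3p to 5p had a median of -0.05 and quartiles of -0.35 and 0.24, with 80 below 0 and 66 above. Some held nearly the same reads with the arms swapped (miR-378a with miR-3557, and miR-130a with miR-3590), so that the 146 are not all separate. The difference of miR-132 was the lowest of the 146 and that of miR-212 the 8th lowest. In size it lay within its standard error of those of miR-493 (1.67, standard error 0.83) and miR-21 (1.67, standard error 0.88), which were in the other direction. In 6.85% of hairpins, miR-132 among them, the ratio was lower in every IR library than in every sham library. With 1 library left out, miR-132 was between the lowest and the 7th lowest, and it was 7th without sham replicate 1. By size it was then between 2nd and 9th. miR-212 was between the lowest, without sham replicate 2, and the 44th lowest, without sham replicate 1. The median deviation of a library from the mean ratio was -0.14 in IR replicate 2 and 0.11 in sham replicate 2, and at most 0.08 in size in the other 4. In sham replicate 1 it was -0.01, where miR-132 deviated by 1.98 and miR-212 by 2.42. miR-132 also deviated by -1.44 in IR replicate 1 and -1.09 in IR replicate 3, and miR-212 by -1.88 in IR replicate 2 and -1.75 in sham replicate 2. The largest deviation of each hairpin was thus in sham replicate 1, with others in several libraries. All were taken from the mean of the 6 libraries, which includes sham replicate 1, so that they depend on each other.

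**Figure D3:**
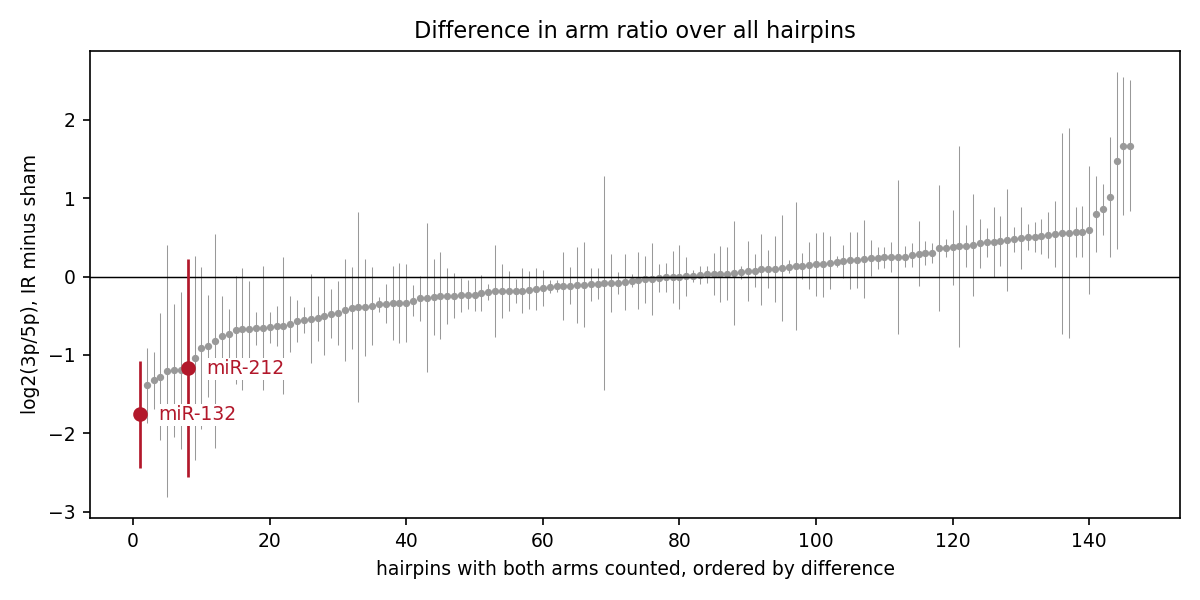
Difference in log2(3p/5p) of IR minus sham (vertical axis) for 146 hairpins in order of the difference (horizontal axis), with bars of 1 standard error from 3 libraries per group. miR-132 (red) is the lowest at -1.76 and miR-212 (red) is 8th at -1.17, with a bar that crosses 0.

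Within the transcript, miR-132 was counted far more often than miR-212. miR-132-3p had 23.7, at least 11 and 23.0 times the reads of miR-212-3p in the IR lungs, the value of IR replicate 2 being set against a floor of 3 reads. In the sham lungs it had 25.3, 173 and 19.2 times the reads, where the value of sham replicate 2 rests on 1 read of miR-212-3p. For the 5p arms the ratio was 9.77, 3.29 and 7.67 in the IR lungs and 5.56, 4.65 and 4.83 in the sham lungs. The difference in log2 ratio of IR minus sham was -0.27 (standard error 1.01) for the 3p arms and 0.32 (standard error 0.49) for the 5p arms, both within their errors. miR-132-3p thus made up nearly all reads with the shared seed. Together the 3p arms were at 11.2, 9.41 and 10.1 normalized CPM in the IR lungs and at 39.7, 15.4 and 13.6 in the sham lungs.

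Neither miRNA was abundant in lung. By reads, miR-132-3p ranked 276, 285 and 287 of 693 in the IR lungs and 216, 259 and 267 in the sham lungs. In the sham lungs miR-132-3p was above miR-132-5p in each library. The arms are counted in the same libraries, so they are compared within each library. The size of the gap in the sham means rested in part on sham replicate 1, where miR-132-3p was far above the rest. After IR the order of the means was miR-132-5p, then miR-132-3p. The 5p arm was above the 3p arm in IR replicates 1 and 3 and below it in IR replicate 2. miR-212-5p and miR-212-3p followed in both groups. No other name in the table held the same counts as a member, within 5% or 2 reads in every library.

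The miRNAs with a profile most like that of miR-132-3p were found by Pearson's r of log2(normalized CPM + 1) over the 6 libraries, which share their depth and scaling between the miRNAs compared. The 5 names were miR-3589 and miR-505-3p (r = 0.955 each), miR-484 (0.940), miR-455-3p (0.936) and miR-652-3p (0.931). miR-3589 and miR-505-3p held the same counts in every library, so that they may stand for 1 set of reads. Of the 418 tested miRNAs, 77 (18.4%) were highest in sham replicate 1, and all 5 names were. The names were picked for likeness to miR-132-3p, itself highest there, so this largely follows from the choice and nothing is read from it. miR-484, for example, was at 11.9, 14.5 and 12.9 normalized CPM in the IR lungs and at 76.7, 13.3 and 16.4 in the sham lungs. miR-652-3p, an intronic miRNA of the gene Tmem164 in mammals, was at 194, 177 and 255 in the IR lungs and at 570, 358 and 272 in the sham lungs. None of the 5 passed an adjusted p under 0.05 between IR and sham in edgeR's quasi-likelihood test (1 had an unadjusted p under 0.05, lower after IR), limma-voom or limma-trend, and DESeq2 called 1 of them lower. The choice of names depended on the measure: by Spearman's rank correlation 0 of these 5 were among the first 5.

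**Figure D4:**
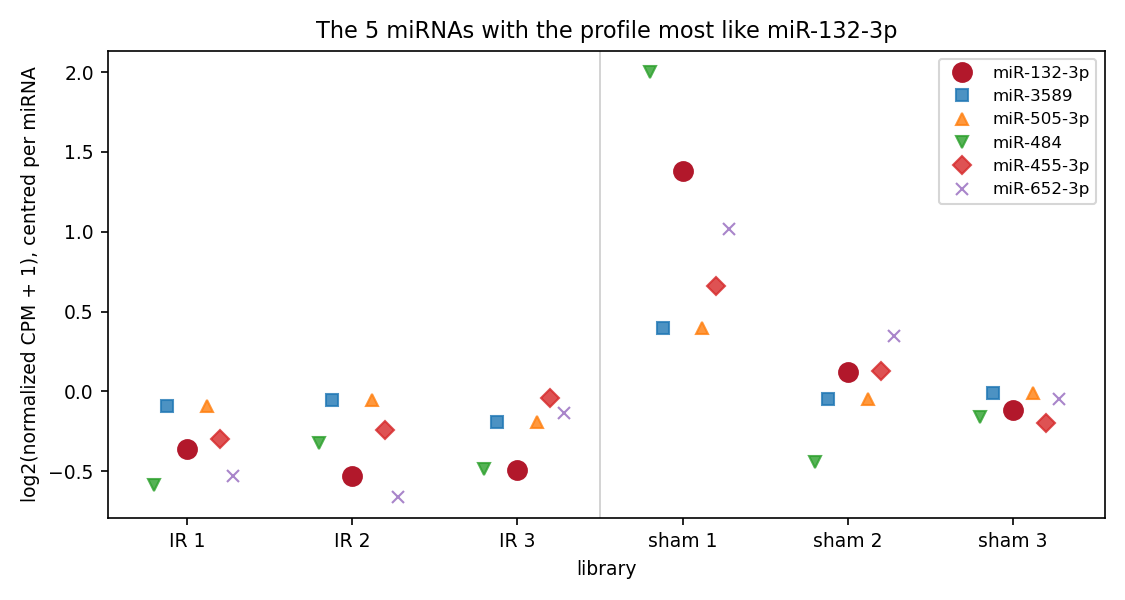
Log2(normalized CPM + 1) of miR-132-3p and of the 5 miRNAs most like it (vertical axis, centred on the mean of each miRNA) in the 3 IR and 3 sham libraries (horizontal axis). Every one of the 6 is highest in sham replicate 1, which largely follows from the choice of the 5 by likeness to miR-132-3p. The points of miR-3589 and miR-505-3p are at the same heights.

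Other miRNAs known from neuronal activity and plasticity, the setting in which CREB and miR-132 are best known, gave calls in both directions. Of 7 listed, 5 were tested, and over all tested miRNAs edgeR called 7.89% higher and 2.63% lower. Of the 5, 1 was higher and 1 was lower after IR, with a median log2 fold change of 0.15 against -0.01 over all tested miRNAs. The summed level of the 7, most of it miR-128-3p, was 436 to 680 normalized CPM after IR and 721 to 1269 in sham. miR-134-5p, which limits dendritic spine size in rat neurons, rose to 13.7 ± 6.65 normalized CPM after IR, against 2.41 ± 0.915 in sham (SD, n = 3 each; adjusted p = 0.0229 from edgeR). miR-128-3p, a miRNA abundant in brain, fell to 447 ± 60.3 after IR, against 1003 ± 285 in sham (SD, n = 3 each; adjusted p = 0.0229 from edgeR). miR-9a-5p of neural cells was at 70.6 ± 62.4 after IR and 38.8 ± 11.8 in sham (SD, n = 3 each), and did not pass the test. With 1 library left out, the adjusted p of edgeR's test ran from 0.0125 to 0.0777 for miR-134-5p (not past the threshold without IR replicate 2, IR replicate 3 or sham replicate 3). For miR-128-3p it ran from 0.00608 to 0.0777 (not past it without IR replicate 1, IR replicate 3 or sham replicate 3). Of the 6 miRNAs listed as neural, miR-124-3p and miR-137-3p had 13 and 11 reads over all 6 libraries and were near 0 in all lungs. The others had more reads: miR-153-3p 56, miR-9a-3p 57, miR-9a-5p 2231 and miR-7a-5p 131028.

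In edgeR's test 7.89% of all tested miRNAs were higher and 2.63% lower after IR. Of 8 miRNAs induced by inflammation or hypoxia, 0 were higher and 1 was lower, with a median log2 fold change of -0.36. At an unadjusted p under 0.05, 1 of the 8 was higher and 2 were lower (59 and 51 of the 418 tested). DESeq2, limma-voom and limma-trend also called 0 higher, and they called 2, 1 and 2 lower. The lower one was miR-146a-5p, which dampens NF-κB signalling by targeting adaptor proteins of Toll-like receptors, at 830 ± 35.4 normalized CPM after IR and 1492 ± 362 in sham (SD, n = 3 each; adjusted p = 0.0247 from edgeR). Its adjusted p ran from 0.0222 to 0.138 with 1 library left out, and it passed only without sham replicate 1 or sham replicate 2. The abundant miR-21-5p and miR-146b-5p had log2 fold changes of -0.69 and 0.29 (standard errors 0.35 and 0.24) and did not pass. miR-132-3p was also lower after IR and miR-132-5p was higher, neither past the threshold. Nothing is read from this, since the contrast was known when the pair was chosen.

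The summed marker miRNAs of leukocytes and of epithelium, which lung tissue also holds, did not overlap between the groups. The summed level of 4 leukocyte miRNAs was 2169 to 2479 normalized CPM after IR and 3055 to 4266 in sham. Of the 4, 1 (miR-150-5p) was lower in edgeR's test, as were 2.63% of all tested miRNAs. miR-150-5p did not pass without IR replicate 3 (adjusted p = 0.0777 from edgeR) or sham replicate 3 (adjusted p = 0.0592 from edgeR). That of 5 miR-200 family miRNAs of epithelium was 18672 to 19222 after IR and 12889 to 15882 in sham, with 0 of 5 called by edgeR (2 higher at an unadjusted p under 0.05), 0 by limma-voom and 1 each by DESeq2 and limma-trend. Of single miRNAs tested, 17.2% had IR libraries all above the sham libraries and 16.7% all below, and no such share was computed for sums. In edgeR's test 7.89% of all tested miRNAs were higher. The endothelial, smooth muscle, erythroid and neural sums overlapped between the groups, and no listed marker was at 0 in all libraries. In sham replicate 1, where miR-132-3p was highest, the leukocyte (3055), erythroid (1233), epithelial (12889) and endothelial (88065) sums were the lowest of the sham libraries. Its smooth muscle sum (158070) was above that of sham replicate 3 (133619), and its neural sum (2100) above that of sham replicate 2 (1826). The part of these cells in the levels of miR-132 and miR-212 was not tested.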

How the data were processed

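Small RNA libraries of rat lung were compared between 3 IR and 3 sham rats. The deposited table holds whole read counts for each miRNA in each library, and the authors also gave them per 1000000 listed reads as TPM, without a length term. The submitters' processing notes name Bowtie. How reads were counted, with which build and annotation, and what became of reads that match several miRNAs or differ at their ends, was not given in the sources used here. Samples were grouped by their titles, and the study calls them biological replicates.

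Counts of all miRNAs were analysed with edgeR 4.0.16 in R 4.3.3 (filterByExpr, minimum count 10 and minimum total count 15, TMM scaling, quasi-likelihood test, Benjamini-Hochberg adjusted p under 0.05). Standard errors of fold changes were taken from the F statistic (size over its square root). Arm ratios are log2((3p reads + 0.5)/(5p reads + 0.5)) in each library, and their differences carry a standard error from the SDs of the groups. The calls, fold changes and arm differences were checked on simulated counts, but the standard errors were not. The simulated arm counts had no spread between rats, and only well-counted hairpins were changed in them. Members and lists were chosen with earlier results of these data known. The text names the 4 members, the called and the 2 most abundant miRNAs of the lists of neuronal and inducible miRNAs (for the marker lists not all that the rule allows), and the 5 most like miR-132-3p. Hairpins with extreme arm ratios or swapped arms, miR-124-3p, miR-137-3p, miR-153-3p and miR-9a-3p were named after their values were seen.

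Alternatives were RLE and total-count scaling, 10 reads in every library or no filter, DESeq2 1.42.0, limma-voom and limma-trend (limma 3.58.1), the replicate number as a block, other pseudocounts, summed reads, other likeness measures and each library left out. Figures were drawn with matplotlib 3.10.9.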

Additional observations from a re-analysis of the deposited data

How the results depend on the processing

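No member was called under any of the 15 settings run, from which nothing is read, since the contrast was known when the pair was chosen. The log2 fold changes of miR-132-3p, miR-132-5p and miR-212-5p kept their sign under all of them in which they were fitted, and with 1 library left out they were -1.43 to -0.52, 0.50 to 1.20 and 0.25 to 0.63. The log2 ratio of miR-212-3p was -1.43 to 0.17 with 1 library left out, and its sign turned without sham replicate 1, which holds 12 of its 27 reads. The arm difference of miR-132 was -2.06 with reads summed over the groups. The difference in log2 ratio of miR-132-3p to miR-212-3p ran from -0.83 to 0.56 with 1 library left out and was 0.40 with a pseudocount of 0.1, so that it has no stable sign.

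Over all miRNAs 33 were called higher and 11 lower. With 10 reads in every library they were 19 and 7, with DESeq2 26 were lower, and with limma-voom 7 were lower. With 1 library left out they were 2 to 40 higher and 0 to 17 lower, the lowest of both without IR replicate 3 (60 higher and 35 lower at an unadjusted p under 0.05). The higher ones were also under 33 by more than 1.5 times without IR replicate 2 (12) or sham replicate 3 (17), and the lower ones moved as far without IR replicate 1 (1), IR replicate 2 (5), sham replicate 2 (17) or sham replicate 3 (4). With the replicate block, 0 were called higher and 0 lower by edgeR (45 and 39 at an unadjusted p under 0.05), and the log2 fold change of miR-132-3p was -0.99. Replicates with the same number did not deviate together (r of their deviations -0.23, -0.39 and -0.18). Deviations from a mean of 3 libraries constrain each other, so that these values cannot show whether the samples were paired. Of the 5 names most like miR-132-3p, 0 were among the first 5 by Spearman's coefficient, 2 with total-count scaling, 1 with deviations from the group means and 4 with log2(CPM + 10). The arm ratios that were lower in every IR library numbered 10 of 146, and with limits chosen after seeing the data 10 of 112 (at least 60 reads of the lesser arm) and 11 of 146 (pseudocount 1). At 3 libraries per group and under 30 reads, miR-212-3p allows no firm statement.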
